A study of Mus musculus with 20 samples.

Results

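The cytosolic ribosomal protein genes, which encode the protein parts of the ribosomes in the cytosol, were described across CUT&Tag peak lists of mouse embryonic ganglia. Members were protein-coding genes whose symbol is Rpl or Rps followed by a number, with an optional letter or X/Y suffix, together with Rplp0, Rplp1, Rplp2 and Rpsa. Kinase genes of the Rps6k family, pseudogenes and genes with an l suffix were left out. This gave 76 of 21887 protein-coding genes, of which 46 encode large-subunit and 30 small-subunit proteins.

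CUT&Tag uses an antibody to bring a transposase to a chromatin protein or histone mark, so that the DNA next to it is cut out and sequenced. The ganglia are labelled CVG, which in inner ear work stands for the cochleovestibular ganglion, and came from C57BL/6J embryos at E11.5 (E for embryonic day). Every group shares this strain, age and tissue, and the labels name no mutation or treatment. The groups are ISL1_26 (1 library), ISL1_70 (3), POU4F1 (2), H3K4me3 (2), H3K27me3 (3), H3K27ac (3), and the controls IgGM (3) and IgGR (3), 20 libraries in all. Peak lists of 14 libraries were used, 1 list per library, and IgG data (6 libraries) were not used. The labels give neither the number of embryos nor whether replicates came from separate dissections, so the spread between libraries may be technical.

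Ribosomal protein genes are expressed in nearly every growing cell, and their products are made in matched amounts. In mammals many of their transcripts begin with a run of pyrimidines, the terminal oligopyrimidine tract, through which mTOR and Larp1 control their translation. H3K4me3 marks active promoters, H3K27ac marks active promoters and enhancers, and H3K27me3 is laid down by Polycomb at silenced genes. ISL1, a LIM homeodomain factor, and POU4F1, a POU homeodomain factor, act together in sensory neuron development.

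Promoter letters are shown for the members with the most factor peaks, for members with the best-ranked H3K27ac peaks, and for Rpl11, chosen after its values were seen because its H3K4me3 peak led its list. Each sequence runs 5′ to 3′ over 70 bases before the start and 30 bases from the start onward, from RefSeq on GRCm38.p6, the assembly that mm10 is built from. Capitals mark the longest run of C and T that reaches into the bases from 20 before to 30 after the start, where that run has at least 8 letters. For genes with several starts the most upstream is shown, and for Rpl22 and Rpl19 the next start as well. Rpl7 belongs to the same sets.
Rps10 (chr17:27635215-27635314, minus strand): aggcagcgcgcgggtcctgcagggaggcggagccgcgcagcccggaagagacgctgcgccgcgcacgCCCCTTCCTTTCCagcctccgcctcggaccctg
Rpl18 (chr7:45718001-45718100, plus strand): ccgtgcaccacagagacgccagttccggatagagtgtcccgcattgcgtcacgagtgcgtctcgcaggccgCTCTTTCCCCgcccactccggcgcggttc
Rps19 (chr7:24884522-24884621, plus strand): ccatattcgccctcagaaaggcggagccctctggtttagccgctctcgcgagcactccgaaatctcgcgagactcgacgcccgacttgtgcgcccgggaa
Rpl10 (chrX:74270746-74270845, plus strand): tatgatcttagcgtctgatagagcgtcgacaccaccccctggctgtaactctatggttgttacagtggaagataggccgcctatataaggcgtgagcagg
Rpl22, upstream start (chr4:152324366-152324465, plus strand): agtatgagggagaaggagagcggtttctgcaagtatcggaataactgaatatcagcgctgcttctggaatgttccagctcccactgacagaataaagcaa
Rpl22, downstream start (chr4:152325656-152325755, plus strand): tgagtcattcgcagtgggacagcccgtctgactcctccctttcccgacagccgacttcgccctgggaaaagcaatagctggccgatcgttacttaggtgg
Rpl19, upstream start (chr11:98026640-98026739, plus strand): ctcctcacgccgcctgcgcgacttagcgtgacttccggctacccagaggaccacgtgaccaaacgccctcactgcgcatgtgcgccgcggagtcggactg
Rpl19, downstream start (chr11:98026854-98026953, plus strand): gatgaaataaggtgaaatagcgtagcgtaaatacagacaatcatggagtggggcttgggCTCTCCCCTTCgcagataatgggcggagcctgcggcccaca
Rps7 (chr12:28635924-28636023, minus strand): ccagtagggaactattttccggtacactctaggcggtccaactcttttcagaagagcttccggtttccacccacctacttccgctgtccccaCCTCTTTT
Rpl5 (chr5:107900458-107900557, plus strand): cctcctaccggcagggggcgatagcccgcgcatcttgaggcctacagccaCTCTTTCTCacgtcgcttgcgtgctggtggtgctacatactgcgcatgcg
Rpl11 (chr4:136053364-136053463, minus strand): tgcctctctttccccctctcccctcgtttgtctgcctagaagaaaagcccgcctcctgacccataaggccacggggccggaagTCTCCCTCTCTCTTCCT

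Long pyrimidine runs were common at these starts. In Rps10 a run of 13 letters covered the annotated start. In Rpl11 a run of 17 letters lay just downstream of it, and in Rpl19 a run of 11 letters ended at the base before the second start. Rps19, Rpl10 and Rpl22 had no run of 8 letters at the starts shown. By this measure, which was chosen after the letters were seen, over all starts in the promoter table, 42 of 66 member starts (63.6%) had such a run, against 4881 of 21263 starts of all protein-coding genes (23.0%). This larger share among members held for runs of at least 12 letters too, at 28.8% of member starts and 6.24% of all starts. At the most upstream start of each gene, a run of at least 8 letters covered the start itself in 15 of the 56 members in the table (26.8%), against 3.48% of 17492 genes.

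Short motifs were searched on both strands from 250 bases before to 50 bases after the most upstream start, as letters only. CCGGAAG, the core bound by ETS factors, was found in 22 of 56 member promoters (39.3%) and in 11.9% of all promoters. Among the sequences shown it occurs in Rps10, Rps7, Rpl11 and the upstream start of Rpl19. AAGATGGC, a YY1 core, was found in 5 members (8.93%) and in 3.21% of all promoters. GGGCGG, an SP1 core, was found in 33 members (58.9%) and in 46.3% of all promoters. CACGTG, bound by MYC, was found in 5 members (8.93%) and in 7.91% of all promoters, and TATAAA in 6 members (10.7%) and 13.3%. GCGCATGC, an NRF1 core, was found in 2 members (3.57%) and in 3.61% of all promoters. Letters tied to both assayed factor families were rare in both sets. CTAATG, a LIM homeodomain core, was found in 1 member (Rps7, 1.79%) and in 6.59% of all promoters. TAATTA was found in 1 member (Rps26, 1.79%) and in 4.69% of all promoters. TAATTAAT, which contains TAATTA, and the octamer ATGCAAAT were found in 0 members, against 0.749% and 1.72% of all promoters.

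The lists differed in size and the libraries did not all match their labels. They held 8855 (H3K27ac replicate 1) to 168144 peaks (H3K27ac replicate 3), and the read depth behind them is unknown. The library labelled H3K4me3 replicate 1 had peaks at 39 of 39 Hox genes, as did H3K27me3 replicates 2 and 3, against 15 of 39 in H3K4me3 replicate 2. H3K27me3 replicate 1 had the narrowest peaks (median 350 bp, against 855 and 574 bp in replicates 2 and 3). Counts by library give both separately, while counts over 2 or more libraries include both under their labels. As a check of the tissue label, 12 of 12 sensory neuron markers had H3K27ac within 1 kb in 2 or more libraries, against 1 of 4 liver and muscle markers. Glia and crest markers (4 of 4), otic epithelium (5 of 5), mesenchyme (3 of 5) and blood and endothelium (5 of 7) also carried it. The share of all genes was 64.9%. H3K27me3 in 2 or more libraries also lay within 1 kb of 11 of the 12 sensory neuron markers, against 27% of all genes. A peak says nothing of the number of cells that carry it.

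Members are short genes. They span 982 to 11774 bp with a median of 3169.5 bp, against a median of 17169 bp for all protein-coding genes. A protein-coding neighbour lay within 1 kb of 29 members (38.2%), against 31.6% of all genes. At least 1 snoRNA, a small RNA that guides rRNA modification, lay inside 29 members (38.2%), against 1.70% of all genes. Because a short gene gives a peak less room, shares are given for all 21887 genes, for the 8797 genes no longer than the longest member, and for the 3665 of those with H3K27ac in 2 or more libraries. The last set is called short active genes below and was added after the values were seen.

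H3K4me3 and H3K27ac covered nearly the whole family. In H3K4me3 replicate 2, 72 of 76 members (94.7%) had a peak within 1 kb, against 51.4% of all genes and 64.9% of short active genes. H3K27ac peaks lay within 1 kb of 68 members in replicate 1, 73 in replicate 2 and 70 in replicate 3. The shares of all genes were 30.7%, 66.6% and 74%. The members' shares were 89.5%, 96.1% and 92.1%. Short active genes, which were picked for H3K27ac in 2 or more libraries, had 44.5%, 97.6% and 97.7%. The members thus lay above them in replicate 1, the shortest list, and slightly below them in replicates 2 and 3, and the filter itself raises the shares of that set. In 2 or more H3K27ac libraries 75 members (98.7%) had a peak, against 64.9% of all genes. H3K27ac in all 3 libraries together with H3K4me3 replicate 2 was seen at 56 members, or 73.7% of them, against 25.6% of all genes. No p-value is given, since the lists hold no level per gene and the libraries share no scale.

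**Figure D1:**
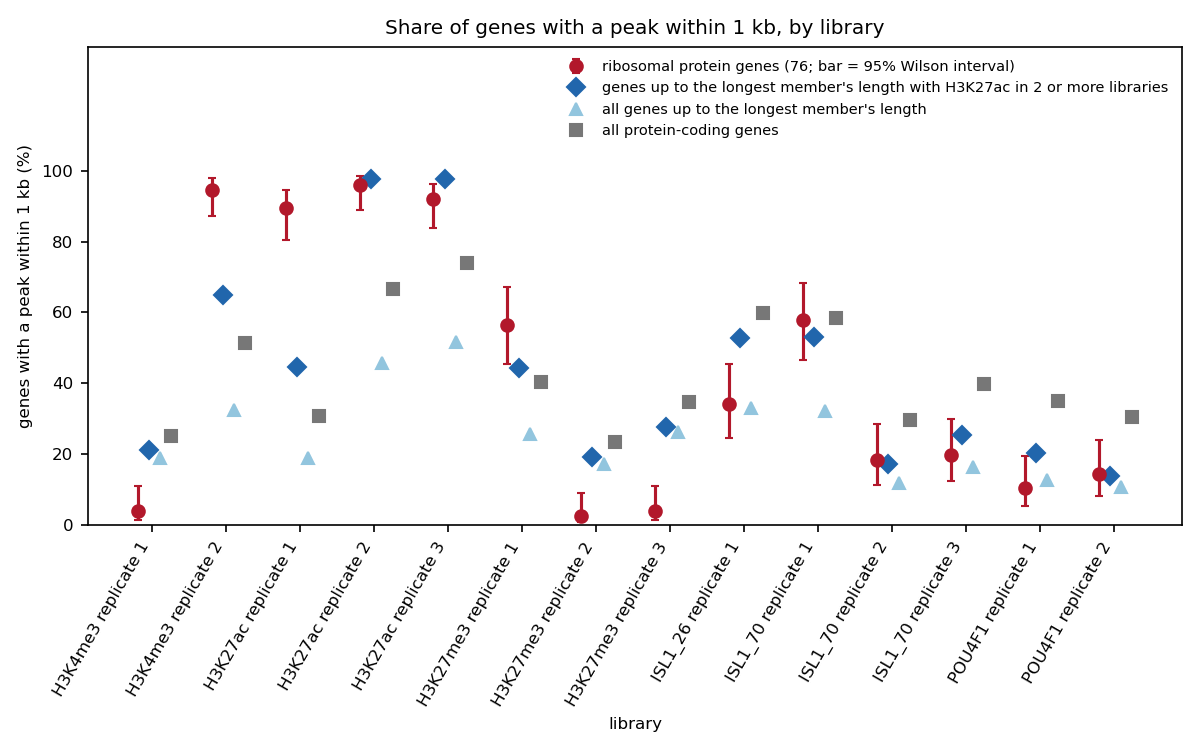
Share of genes with a peak within 1 kb (y axis, %) in each of the 14 libraries (x axis) for the 76 ribosomal protein genes with 95% Wilson intervals, for short genes with H3K27ac, for all short genes and for all protein-coding genes. The members sit at 94.7% in H3K4me3 replicate 2 and 89.5% to 96.1% in H3K27ac, at 2.63% to 3.95% in H3K4me3 replicate 1 and H3K27me3 replicates 2 and 3, and at or below the all-gene share in the 6 factor libraries. The intervals cover counting error only, and genes are not independent replicates.

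H3K4me3 peaks at members ranked among the best of their list. The percentile used here orders the peaks of a list by the fold enrichment that the authors' caller gave, with 0 the highest. The median member percentile in H3K4me3 replicate 2 was 4.19, against 23.1 for all genes with a peak and 18.2 for short active genes. In the top 10% of the list were 52 of 72 members (72.2%), against 23.3% of all genes with a peak. Of 125 genes reached by the 100 best peaks, 13 were members.

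Rpl11, whose product binds Mdm2 and so stabilises p53 when ribosome assembly fails, had the highest peak of all 22425, with a fold of 402 and a width of 1554 bp. Rpl8, a core protein of the large subunit, ranked 8 with a fold of 308. Rpl5, which acts with Rpl11 in the same Mdm2 complex, ranked 9 with a fold of 302. Rpl7a and Rpl9 followed at ranks 13 and 17, so that large-subunit genes held the 5 best member ranks. At the other end, the peaks of Rpl3, Rpl10 and Rpl26 had percentiles of 39.5, 53.0 and 76.8, the weakest of the 72 by fold. Their −log10 q values were 21.8, 14.5 and 85.7, against a median of 47.9 for all genes with a peak, so Rpl26 was weak by fold only. Rpl3 lies near the peptidyl transferase centre, and Rpl10 joins the large subunit late in its maturation.

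The peaks were also wide. Their median width was 1182.5 bp at members, against 732 bp at all genes with a peak and 907 bp at short active genes. The widest were at Rpl7 (2855 bp), Rps25 (2538 bp), Rpl35a (2444 bp), Rps27 (2318 bp) and Rps14 (2253 bp). Rps25, Rpl35a and Rps27 have a protein-coding neighbour within 1 kb, whose promoter the same peak can cover, while Rpl7 and Rps14 have none within 1 kb. The Rpl7 peak (chr1:16103701-16106555) reaches further than that past the gene's right end at 16104433, with its summit 952 bp from that end. Whether it covers the promoter of a more distant gene was not examined.

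Most summits stood a short way inside the gene. Of 53 members with both a peak and an annotated start, 47 had the H3K4me3 replicate 2 summit downstream of it. The median lay 250 bp downstream (quartiles 205 and 331 bp), against 426 bp for all genes (quartiles 136 and 1454 bp) and 320 bp for short active genes. Between 150 and 350 bp downstream were 31 members (58.5%), against 18.1% of all genes. The 5 members with an upstream summit were Rps21, Rps12, Rpl4, Rps27 and Rps25, named after their values were seen, and 4 of them have a protein-coding neighbour within 1 kb. At Rpl22 the summit lay 1456 bp from the upstream start and 166 bp from the downstream start shown above. H3K27ac summits had medians of 369.5, 102 and 171 bp downstream in replicates 1 to 3. In H3K27ac replicate 1, 45 of 50 members had the summit downstream (quartiles 190.5 and 517.75 bp), while in replicates 2 and 3 the counts were 40 of 54 and 35 of 51.

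**Figure D2:**
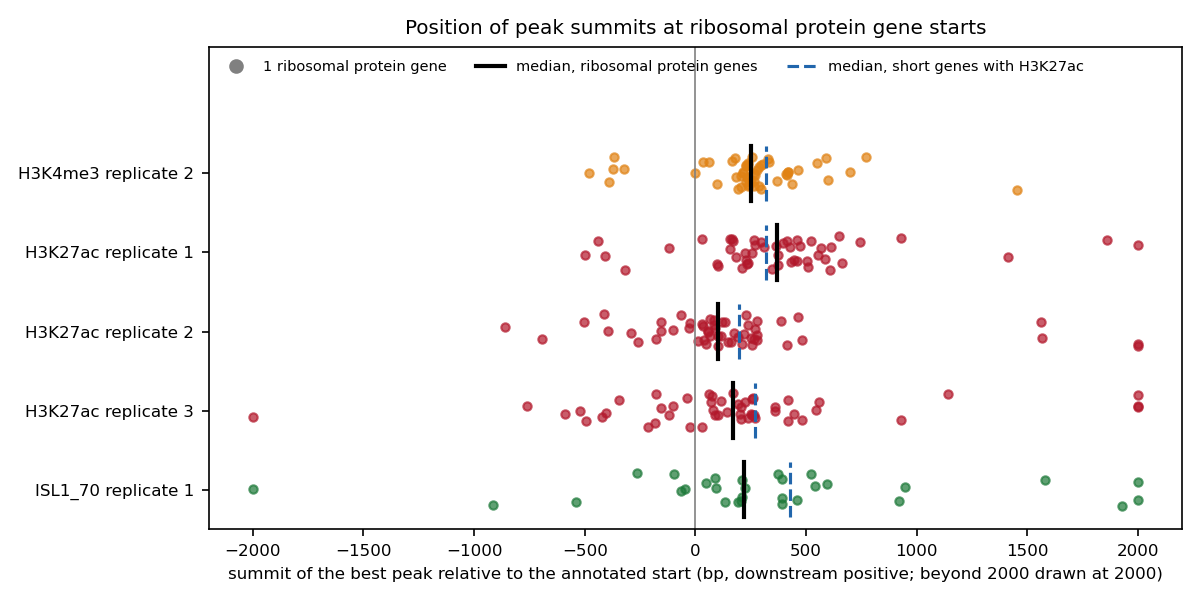
Distance of the best peak's summit from the annotated start (x axis, bp, downstream positive) for each ribosomal protein gene with a peak and an annotated start, in 5 libraries (rows). Black lines are member medians and dashed lines medians of short genes with H3K27ac; in H3K4me3 replicate 2 the members bunch around 250 bp, and in ISL1_70 replicate 1, 23 of 30 summits lie downstream of the start.

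The members that lacked an H3K4me3 replicate 2 peak were Rpl6, Rpl14, Rpl27a and Rplp1. All 4 had H3K27ac in every replicate. Rpl27a had H3K27ac percentiles of 8.57, 2.43 and 10.4 in replicates 1 to 3, and Rpl6 had 16.6, 15.4 and 16.5, so their H3K27ac peaks ranked well above the middle of each list. Rpl14 had 64.4, 27.7 and 6.60. Rplp1, one of the stalk proteins that recruit elongation factors, had 95.7, 18.7 and 71.9, the weakest of the 4 in replicates 1 and 3. Rps26 was the member with H3K27ac in fewer than 2 libraries: its peak was in replicate 3, at percentile 41.5, beside an H3K4me3 replicate 2 peak at percentile 17.0. Rps26 had no peak in any other list.

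The best-ranked H3K27ac peaks were at Rpl7, Rpl19, Rps7, Rpl5 and Rpl8. Rpl7, a large-subunit protein, had percentiles of 0.316, 1.23 and 0.516 in replicates 1 to 3. Rpl19 had 0.689, 2.25 and 0.0589, and its replicate 3 peak was the best of any member in any H3K27ac list. Rps7, a small-subunit protein that also binds Mdm2, had 4.86, 2.68 and 1.497. Rpl5 had 1.15, 0.990 and 7.42, and Rpl8 had 5.87, 6.09 and 1.497. These 5 stayed within the top 10% of every H3K27ac list. Member medians were 13.7, 7.51 and 6.07 in replicates 1 to 3, against 33.8, 11.3 and 10.4 for all genes with a peak. The gap to all genes was widest in replicate 1.

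**Figure D3:**
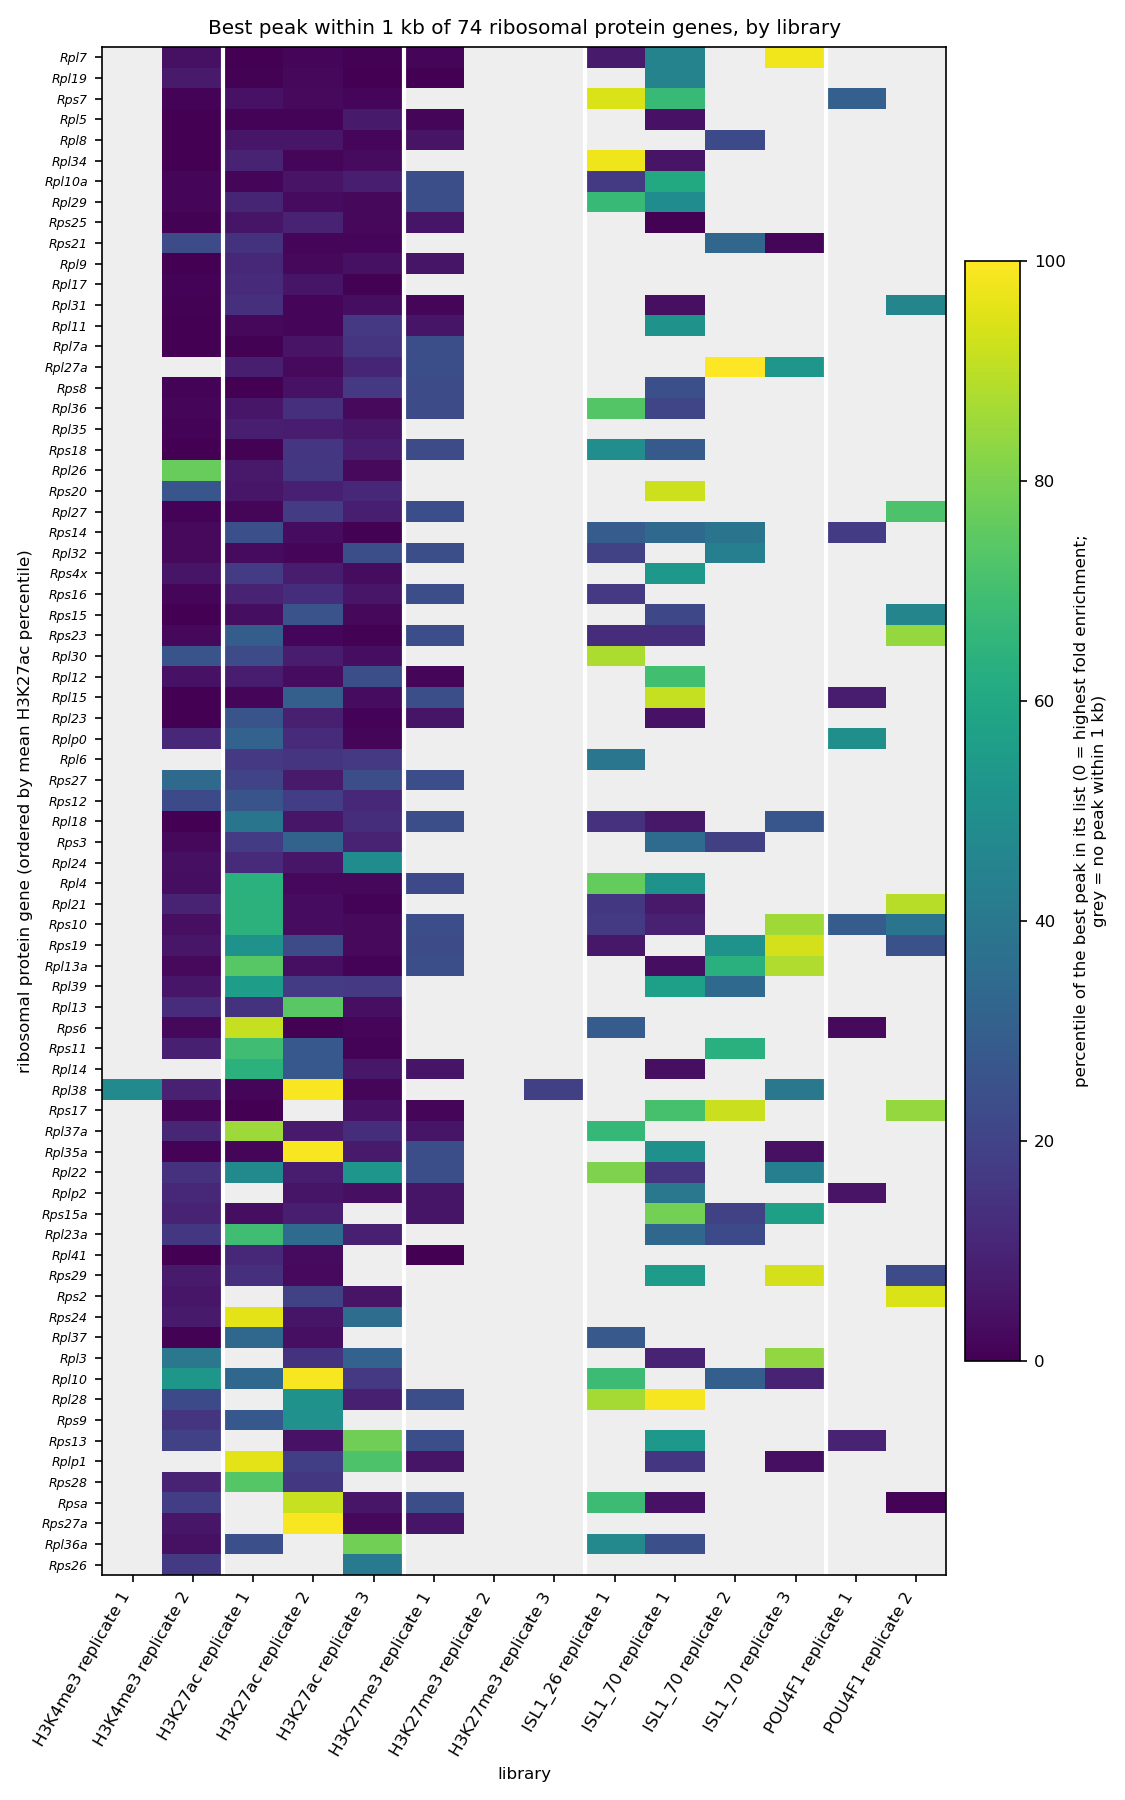
Percentile of the best peak within 1 kb (colour, 0 for the highest fold of the list, grey for no peak) for 74 of the 76 ribosomal protein genes (rows, ordered by mean H3K27ac percentile from Rpl7 to Rps26) in the 14 libraries (columns, grouped by target). The H3K4me3 replicate 2 and H3K27ac columns are filled for nearly all genes, the H3K4me3 replicate 1 and H3K27me3 replicate 2 and 3 columns are empty apart from Rpl38 among the genes drawn, and the factor columns are sparse.

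Other members differed more between H3K27ac replicates. Rps6, the substrate of the S6 kinases, had percentiles of 91.0, 0.620 and 1.497 in replicates 1 to 3, so replicate 1 stood apart. Rpl38, whose loss in the mouse alters translation of Hox mRNAs, had 1.84, 98.9 and 1.22, and here replicate 2 stood apart. Rps27a, made as a fusion with ubiquitin, had no peak in replicate 1 and percentiles of 99.0 and 1.96 in replicates 2 and 3. Rpsa, the laminin receptor precursor, likewise had none in replicate 1 and percentiles of 91.7 and 6.07 in replicates 2 and 3. Steadier values were seen at Rps4x, the X-linked copy of a gene with a Y-linked partner in humans, with 17.9, 7.51 and 3.44. Rps3, at the mRNA entry of the small subunit, had 17.9, 31.9 and 9.40, but not at 1 place. Its best replicate 3 peak lay beyond the far end of the gene, with the summit 7189 bp downstream of the start. Rplp0, the base of the stalk, had 31.6, 12.2 and 1.80, while its partner Rplp2 had no peak in replicate 1 and 5.63 and 4.19 in replicates 2 and 3.

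H3K27me3 was nearly absent from the family in replicates 2 and 3. Peaks within 1 kb were found at 2 and 3 members in these libraries, against 23.4% and 34.6% of all genes. The library labelled H3K4me3 replicate 1 also had 3 members, against 25.2% of all genes. At 73 members none of these 3 libraries had a peak (96.1%), against 64.4% of all genes. In 2 or more H3K27me3 libraries the count was 2 members, against 27% of all genes. In 2 or more H3K4me3 libraries it was 3 members, against 13.5% of all genes, and without replicate 1 the remaining library held 72.

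At Rpl38, the peak of H3K27me3 replicate 3 lay outside the gene, with its summit 1804 bp upstream of the start. The library labelled H3K4me3 replicate 1 had its Rpl38 peak at the same place, with the summit 1803 bp upstream. Rpl38 had an H3K4me3 replicate 2 peak as well, with its summit 412 bp downstream of the start at percentile 9.25, so these peaks stood on opposite sides of the start.

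H3K27me3 replicate 1 went the other way. It had a peak within 1 kb of 43 members (56.6%), against 40.4% of all genes and 44.4% of short active genes. Of these 43 members, 38 had the peak on an H3K4me3 replicate 2 peak (88.4%), against 47.7% of all genes with a peak. The members' peaks had a median width of 428 bp and a median −log10 q of 2.80, against 377 bp and 1.09 for all genes with a peak in this list. In the top 10% of the list were 46.5% of the members with a peak, against 36.9% of all genes with a peak, while the median percentiles were 22.7 and 24.2. Folds in this list were low and often tied. Many member peaks shared a fold of 1.99, a −log10 q of 1.09 and a percentile of 24.2. That was also the largest percentile of any member, so here 24.2 stands for the weakest member peaks. The same library had peaks at 33 of 39 Hox genes, so it covered both kinds of place. What part this plays in the members' count was not tested. The overlap with H3K4me3 replicate 2 was not counted for short genes. That library had a peak within 1 kb of 94.7% of members and 51.4% of all genes.

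ISL1 peaks were found near fewer members than genes in general, which are longer, in the libraries other than ISL1_70 replicate 1. In ISL1_70 replicate 1 the members' share lay near that of all genes and well above that of short genes. Within 1 kb, ISL1_26 replicate 1 had a peak at 26 members (34.2%), against 59.9% of all genes. ISL1_70 replicate 1 had a peak at 44 members (57.9%), against 58.4% of all genes. ISL1_70 replicates 2 and 3 had peaks at 14 and 15 members (18.4% and 19.7%), against 29.7% and 39.7% of all genes. All genes no longer than the longest member had shares of 33.1%, 32.2%, 11.8% and 16.5% in the same order of libraries, each below the members' share. Short active genes had shares of 52.7%, 53.2%, 17.2% and 25.3% in the 4 libraries, so that in ISL1_70 replicates 1 and 2 the members were slightly above them and in the other 2 libraries below. In 2 or more libraries 32 members had an ISL1 peak (42.1%), against 57.3% of all genes, 47.0% of short active genes and 26.5% of all short ones. At least 1 library had a peak at 58 members (76.3%), against 78.8% of all genes, 56.8% of all short ones and 81.3% of short active genes. In all 4 libraries a peak was found at 0 members, against 16.5% of all genes, 1.58% of all short ones and 3.41% of short active genes. A peak was in 3 libraries at 9 members, in 2 at 23, in 1 at 26 and in none at 18.

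Leaving out ISL1_70 replicate 1 brought the count of 32 down to 12, and leaving out ISL1_26 replicate 1 brought it to 19. The same gene in 2 lists does not mean the same place: 16 members (21.1%) had a merged region of overlapping peaks from 2 or more libraries, against 29.3% of all genes, 13.3% of all short ones and 26.2% of short active genes. In 4 of these 16 members (Rpl10, Rpl7, Rps14 and Rps19) 3 libraries took part. The regions of all 16 lay on H3K27ac of at least 1 library, and 13 of them on H3K4me3 replicate 2. These overlaps were not counted for all genes. Within 1 kb, all 76 members had H3K27ac in at least 1 library (77.9% of all genes), and 72 had H3K4me3 replicate 2. In ISL1_70 replicate 1, 37 of 44 members had the peak on H3K4me3 replicate 2 (84.1%), against 34.2% of all genes with a peak. The same count was 12 of 26 in ISL1_26 replicate 1 (46.2%), against 27.1% of all genes with a peak. It was 4 of 14 in ISL1_70 replicate 2 (28.6%), against 16.3%, and 6 of 15 in ISL1_70 replicate 3 (40%), against 16.0%. The members' share was thus above that of all genes with a peak in each of the 4 libraries, and was highest in ISL1_70 replicate 1. Members are shorter than genes in general, and 94.7% had H3K4me3 replicate 2 within 1 kb, against 51.4% of all genes. What part this plays was not tested, and the overlap was not counted for short genes.

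ISL1 peaks at members did not rank high within their lists. Median member percentiles were 43.1 in ISL1_26 replicate 1 and 33.7, 36.4 and 53.0 in ISL1_70 replicates 1 to 3. All genes with a peak had 25.0 in ISL1_26 replicate 1 and 24.3, 34.3 and 34.2 in ISL1_70 replicates 1 to 3. Short active genes had 30.8 in ISL1_26 replicate 1 and 28.5, 43.2 and 56.0 in ISL1_70 replicates 1 to 3, so in ISL1_70 replicates 2 and 3 the members ranked better than these. Rps25 had the best-ranked member peak of any ISL1 list, at percentile 0.404 in ISL1_70 replicate 1 with the summit 98 bp upstream of the start. Rps25 had no peak in the other ISL1 lists.

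The 9 members with ISL1 peaks in 3 libraries were Rps10, Rps14, Rpl18, Rps19, Rpl10, Rpl22, Rpl7, Rpl13a and Rps15a. At Rps19, the gene most often mutated in the human anaemia of Diamond and Blackfan, peaks of ISL1_26 replicate 1 and of ISL1_70 replicates 2 and 3 overlapped, the merged region spanning chr7:24883985-24884674. Their summits lay 544, 556 and 281 bp upstream of the start, at percentiles of 6.62, 50.9 and 93.6. At Rpl10 the same 3 libraries overlapped over chrX:74270110-74270739 once merged, with summits 398, 380 and 256 bp upstream at percentiles of 68.7, 30.2 and 10.1. Both regions had their ISL1 summits upstream of the start. The Rpl10 region ended before the start, while the Rps19 region ran 82 bp past it.

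At Rps14, whose loss underlies the anaemia of a human deletion syndrome, ISL1_26 replicate 1 and ISL1_70 replicates 1 and 2 overlapped, merged over chr18:60773900-60774923 at the left end of the gene, with percentiles of 29.2, 34.1 and 38.4. At Rpl7 peaks of ISL1_26 replicate 1 and ISL1_70 replicates 1 and 3 merged over chr1:16103874-16105956 under its wide H3K4me3 peak, with percentiles of 7.21, 44.7 and 98.0. Here the ISL1_70 replicate 3 peak overlapped both others, which did not overlap each other, and a further ISL1_70 replicate 1 peak beyond 1 kb from the gene lengthened the region. The remaining 5 members had their peaks at different places or in fewer libraries at 1 place. At Rpl22, a protein with the paralog Rpl22l1, the 3 summits lay 1927, 5237 and 9900 bp from the upstream start and none coincided. At Rps15a they lay 638 to 12408 bp from the start. Rpl13a, which holds 4 snoRNAs, had ISL1_70 replicates 1 and 3 together upstream of its start and replicate 2 at its far end.

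**Figure D4:**
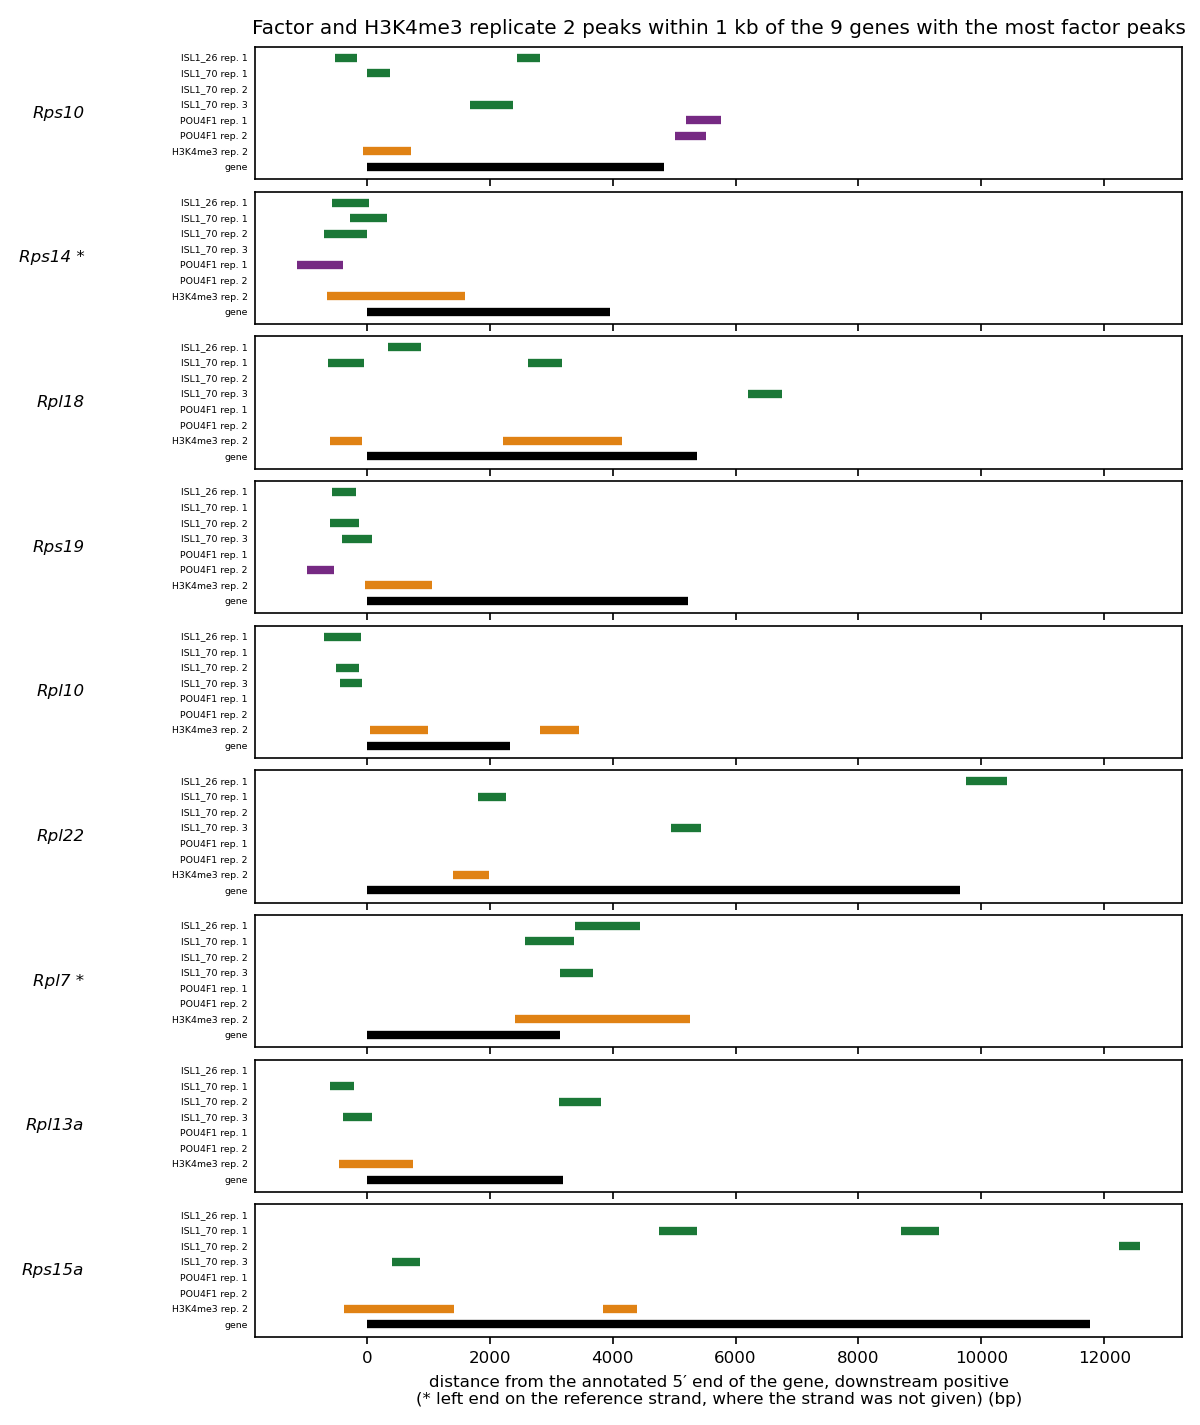
Peaks of the 4 ISL1 libraries (green), the 2 POU4F1 libraries (purple) and H3K4me3 replicate 2 (orange) within 1 kb of the 9 members with ISL1 peaks in 3 libraries, against distance from the gene's 5′ end (x axis, bp; left end for Rps14 and Rpl7). At Rps19, Rpl10 and Rps14 peaks of 3 libraries overlap, at Rpl7 1 peak bridges 2 others, and at Rps10 both POU4F1 peaks stand beyond the far end of the gene.

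POU4F1 peaks were found near fewer members than genes in general, which are longer. Replicates 1 and 2 had peaks within 1 kb of 8 and 11 members (10.5% and 14.5%), against 34.9% and 30.4% of all genes and 20.3% and 13.8% of short active genes. All genes of up to the longest member's length had 12.7% and 10.8%. The 2 lists shared 1 member, Rps10 (1.32%), against 17.3% of all genes, 2.10% of all short ones and 3.49% of short active genes, so the count lay near the share of genes of like length. At Rps10 the peaks of both libraries overlapped, merged over chr17:27629481-27630234, beyond the far end of the gene, at percentiles of 29.3 and 38.4, where no H3K27ac or H3K4me3 replicate 2 peak lay. The 4 ISL1 peaks of Rps10 lay elsewhere, at summits 478 bp upstream and 192, 2028 and 2635 bp downstream of the start.

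At a few members a POU4F1 peak of a single library ranked high. In the top 10% of the replicate 1 list were 4 of 8 members with a peak (50%), against 19.8% of all genes with a peak. In replicate 2 it was 1 of 11 members (9.09%), against 19.4%. Rpsa had one at percentile 0.918 in replicate 2, with the summit 892 bp downstream of the start. Rps6 had one at percentile 2.46 in replicate 1, 147 bp downstream, on H3K4me3 replicate 2 and on H3K27ac of 3 libraries. Rplp2 had one at percentile 5.17 in replicate 1, 366 bp upstream. Rpl15 and Rps13, named after their values were seen, had percentiles of 7.51 and 9.47 in replicate 1. The peak of Rplp0 was mid-list, at percentile 49.8 in replicate 1, 315 bp upstream, against a median of 32.9 for all genes with a peak. None of these was found in the other POU4F1 library. At 15 members (19.7%) a POU4F1 and an ISL1 peak were both present in at least 1 library each, against 44.4% of all genes, 15.9% of all short ones and 26.4% of short active genes. At another 15 members, Rpl7a, Rpl9, Rpl41 and Rps27a among them by a choice made after the values were seen, none of the 6 factor libraries had a peak within 1 kb (19.7%), against 17.6% of all genes and 14.4% of short active genes.

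A wider window raised the counts for the factors. Within 10 kb, ISL1_26 replicate 1 reached 54 members (71.1%), against 76.9% of all genes. ISL1_70 replicate 1 reached 61 members (80.3%), against 75% of all genes, so that its members stood above all genes at this width and just below them within 1 kb. Short active genes had 77.6% in this library and all short ones 58.8%. ISL1_70 replicates 2 and 3 reached 27 and 31 members (35.5% and 40.8%), against 41.7% and 55.4% of all genes. POU4F1 replicates 1 and 2 reached 29 and 23 members (38.2% and 30.3%), against 47.4% and 44% of all genes. For these last 4 libraries and ISL1_26 the members stayed below all genes by less than within 1 kb. Short active genes had 79.6% in ISL1_26 replicate 1, 34.7% and 49.6% in ISL1_70 replicates 2 and 3, and 40.4% and 31.0% in POU4F1 replicates 1 and 2. H3K4me3 replicates 1 and 2 reached 19 and 73 members (25.0% and 96.1%), against 33.1% and 60.4%. H3K27me3 replicates 1 to 3 reached 55, 14 and 23 members (72.4%, 18.4% and 30.3%), against 49.9%, 30.5% and 47.6%. H3K27ac replicates 1 to 3 reached 69, 74 and 74 members (90.8%, 97.4% and 97.4%), against 37.8%, 73.3% and 82.2%. The H3K4me3 replicate 2 and H3K27ac replicate 1 counts hardly moved with the window, while the factor and H3K27me3 counts grew with the space searched.

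The marks were spread over both subunits. H3K4me3 replicate 2 covered 42 of 46 large-subunit and 30 of 30 small-subunit genes, and all 4 genes without it encode large-subunit proteins. ISL1 in 2 or more libraries was found at 20 of 46 large-subunit and 12 of 30 small-subunit genes. POU4F1 replicate 1 had peaks at 3 large-subunit and 5 small-subunit genes, and replicate 2 at 3 large-subunit and 8 small-subunit genes. Of the 47 members without a protein-coding neighbour within 1 kb, 21 had ISL1 in 2 or more libraries, 43 had H3K4me3 replicate 2 and 46 had H3K27ac in 2 or more libraries. Of the 29 with a neighbour, the counts were 11, 29 and 29. Members longer than the median had ISL1 in 2 or more libraries at 19 of 38, against 13 of 38 shorter ones.

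Other genes of translation were counted by the same rule. Of 12 related ribosomal genes outside the rule, such as Fau, which is made fused to a ubiquitin-like protein, and Rack1, a small-subunit scaffold, 8 had H3K4me3 replicate 2 and 9 had H3K27ac in 2 or more libraries. Rpl10l, Rpl39l and Rps27rt had neither mark in any library. Of 78 mitochondrial ribosomal protein genes, 59 had H3K4me3 replicate 2 and 33 had H3K27ac replicate 1. Of 31 translation factor genes, 28 had H3K4me3 replicate 2 and 22 had H3K27ac replicate 1. Of 26 ribosome assembly genes the counts were 23 and 13, and of 13 genes that control ribosomal protein synthesis, among them Mtor, Larp1 and Myc, 11 and 9. The shares of all genes were 51.4% in H3K4me3 replicate 2 and 30.7% in H3K27ac replicate 1. The cytosolic ribosomal protein genes had the largest share with H3K27ac replicate 1 of these lists, at 89.5%, the next being translation factors at 71.0%. In replicates 2 and 3 they did not lead. In replicate 2 their share was 96.1%, against 100% of translation factor and control genes and 96.2% of assembly genes. In replicate 3 it was 92.1%, against 100% of control genes, 91.0% of mitochondrial ribosomal protein genes and 90.3% of translation factor genes.

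ISL1 in 2 or more libraries was found at 31 of 78 mitochondrial ribosomal protein genes, 18 of 31 translation factor genes, 14 of 26 assembly genes and 12 of 13 control genes. The share of all genes was 57.3%. The control genes are long, with a median of 36861 bp, and members are short, so these counts were not set against each other by a test. POU4F1 in both libraries was found at 2, 3, 1 and 1 of the same lists, against 17.3% of all genes. Hox genes, a Polycomb contrast, had H3K27me3 in 2 or more libraries at 39 of 39 and H3K27ac at 4 of 39. The shares of all genes were 27% and 64.9%.

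**Figure D5:**
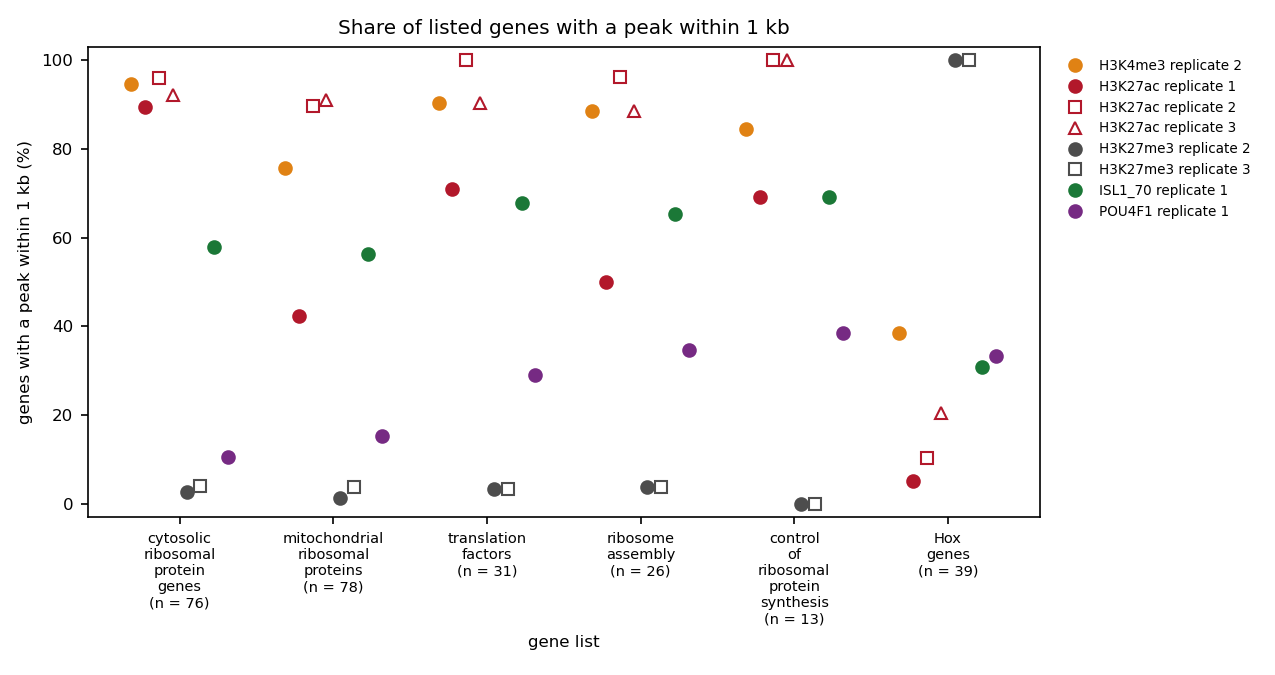
Share of genes with a peak within 1 kb (y axis, %) in 8 libraries (symbols) for the cytosolic ribosomal protein genes, 4 other translation-related lists and the Hox genes (x axis, number of genes in brackets). The cytosolic members lead in H3K27ac replicate 1 at 89.5%, all translation lists lie at or below 3.95% in H3K27me3 replicates 2 and 3, and the Hox genes lie at 100% there.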

How the data were processed

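The authors deposited a peak list per library, 14 in all, each from a single replicate. Per the file headers (the peak names), MACS2 called the peaks with a control, which the sources used here do not name. Build mm10 and the tools Bowtie2, FastQC and SEACR are named, without versions or roles, per the submitters' processing notes. Deposited values are each peak's fold enrichment (a ratio to the caller's estimate of background) and −log10 values of p and q. The authors' lists all end at a −log10 q of 1 (q of 0.1). Folds were ranked within a list and never compared between lists. Ribosomal protein genes have many near-identical processed pseudogenes, and how reads that match several places were treated is not stated there.

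Genes came from RefSeq on GRCm38.p6. A member counted for a library when a peak overlapped the gene with 1 kb (or 10 kb) on each side by at least 1 bp. ISL1_26 and ISL1_70 libraries were treated as 1 target, since both carry the antibody label ISL1. Starts and strands came from a promoter table that held 56 members and 17492 genes. Of 13 related ribosomal genes listed, 12 matched. Genes were named by a rule: 17 fixed members, those with the most factor peaks, those lacking an active mark, those with H3K27me3, and the best-ranked or widest. The members, lists and rule were chosen with earlier results of these data known. Promoter starts planned for windows were available for these genes only. No test was run, because a peak list holds no level per gene. Wilson intervals are at 95%. Counting was tested on simulated peaks (Python 3.11.15, numpy 2.4.6, pandas 2.3.3, scipy 1.17.1, matplotlib 3.10.9). Alternatives were a wider margin, gene ends or starts only, a stricter q, equal list sizes, summits, other library minimums, merged regions, genes without neighbours, and each library left out. A few genes are counted in totals but not reported by name here.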

Additional observations from a re-analysis of the deposited data

How the results depend on the processing

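Of the recomputed counts of members with a peak in 2 or more libraries, 40 stayed within 1.5 times the value reported and 27 did not. This was judged by the share of the genes counted, not by the count. ISL1 within 1 kb of the start, at 16 of 56 (28.6%, against 42.1%), thus stayed within it. POU4F1 without neighbours, at 1 of 47 (2.13%, against 1.32%), did not. For ISL1 (32 members) the count was 57 within 10 kb, 1 with the 8000 best peaks per list, 58 with at least 1 library, 0 with every library, 16 with merged regions, and 13 on H3K4me3 replicate 2, an alternative chosen after seeing the data; leaving out each library gave 12 to 26. For POU4F1 (1 member) it was 10 within 10 kb, 0 of 56 at the start, 0 with the 8000 best peaks, 18 with at least 1 library and 1 of 47 without neighbours; the single libraries gave 8 to 11. For H3K4me3 (3 members) it was 18 within 10 kb, 0 at the start, 0 by summit, 72 with at least 1 library, 1 with merged regions, and 72 with replicate 2 by itself, also chosen after seeing the data; the single libraries gave 3 to 72. For H3K27me3 (2 members) it was 18 within 10 kb, 0 at the start, 1 by summit and 44 with at least 1 library; leaving out each library gave 2 to 2. For H3K27ac (75 members) it was 46 with the 8000 best peaks and stayed within 1.5 times under the other alternatives run; leaving out each library gave 62 to 67. The cause of these shifts was not tested, apart from the smaller sets that the start (56 genes) and neighbour (47 genes) alternatives leave. No paired analysis was possible because no result comes from a test, and a shared replicate number does not tie libraries together in the labels. Depth is unknown, so a missing peak can be a shallow library, and lists of 8855 to 168144 peaks give unequal chances of a peak.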
